A study of Mus musculus with 12 samples.

Results

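The genes described here are 36 markers of cortical layers and of projection neurons, the glutamatergic neurons that send axons out of their own patch of cortex. They were taken as a fixed list of gene symbols rather than by a threshold on their values, and all 36 had a locus among the 20989 loci of the deposited expression tables. The list holds 10 genes of the upper layers, 9 of layer 5, 6 of layer 6 and the subplate-derived layer 6b, 7 whose expression crosses layers or marks subsets of projection neurons, and 4 that mark excitatory neurons in general. Their levels were measured by RNA sequencing of polyadenylated RNA from auditory cortex of 6 mice of the strain C57bl6/J at 4 weeks of age.

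Coronal slices of 350 µm were cut along the midline, and for each mouse 1 hemisphere was kept in artificial cerebrospinal fluid (aCSF, control) and the other in cocktail aCSF for 1 h. The cocktail held 50 µM bicuculline, which blocks GABA-A receptors, 100 µM norepinephrine, 50 µM carbamoylcholine, an agonist of acetylcholine receptors, 100 µM dopamine, 40 µM ascorbic acid and 100 µM serotonin. Both hemispheres had first spent 15 min in dissection buffer and 45 min in plain aCSF, so that slicing, recovery and rest were shared by the groups. After the incubation, the study's methods give both hemispheres a further rest of 1 h in plain aCSF before the cortex was dissected. The sample labels do not mention this last rest. The comparison asks whether network disinhibition together with these neuromodulators alters the RNA level of each gene, and it rests on 6 control and 6 cocktail libraries paired by mouse. In such bulk tissue, fewer cells of a type and less RNA per cell cannot be told apart.

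The cortex is built of layers whose projection neurons differ in origin, target and gene expression. Neurons of the upper layers project mainly within the cortex, including through the corpus callosum, layer 5 holds the neurons that reach the brainstem and spinal cord, and layer 6 holds those that project to the thalamus. These identities are set during development by transcription factors that restrain one another, such as Fezf2 and Bcl11b in layer 5 and Tbr1 in layer 6, and many of the same factors are still expressed in the mature neuron. Layer markers are widely used to name excitatory cell types and to ask which part of the cortical depth a piece of tissue holds.

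Levels are given in FPKM, fragments scaled for transcript length and for the number of fragments mapped, which allows genes of different length to be compared. The libraries held 10601067 to 19768881 reads in control and 13544297 to 17643462 in cocktail, as recovered from the width of the intervals around the FPKM values. The control library of mouse 1 stood apart from the others, with a median distance of 0.167 on the log2 scale from its group's median level against 0.05 to 0.074 in the other 11 libraries. It gave the lowest control value for 17 of the 35 members tested, where it did so for 50.1% of all loci tested. Estimates without this mouse are given by role below.

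In control cortex, all 36 genes were detected in each of the 6 libraries, and their mean levels spanned an 800.4-fold range. The median member had 17.9 FPKM, against 10.2 FPKM for the 12032 loci with a mean of at least 1 FPKM over the 12 libraries, the loci that entered the tests. Of the members, 4 reached 100 FPKM or more, 20 lay from 10 to 100 FPKM and 12 lay under 10 FPKM. The spread over mice had a median coefficient of variation of 13.8%, against 11.0% for all loci tested, and ran from 4.15% for Wfs1 to 28.4% for Neurod6. Neighbours in the order of mean level had overlapping control ranges in 32 of 35 cases. Among neighbours, the order was thus resolved only between Slc17a7 and Pcp4, between Mef2c and Crym, and between Otof and Scnn1a. Genes further apart in the order were not compared by their ranges.

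**Figure D1:**
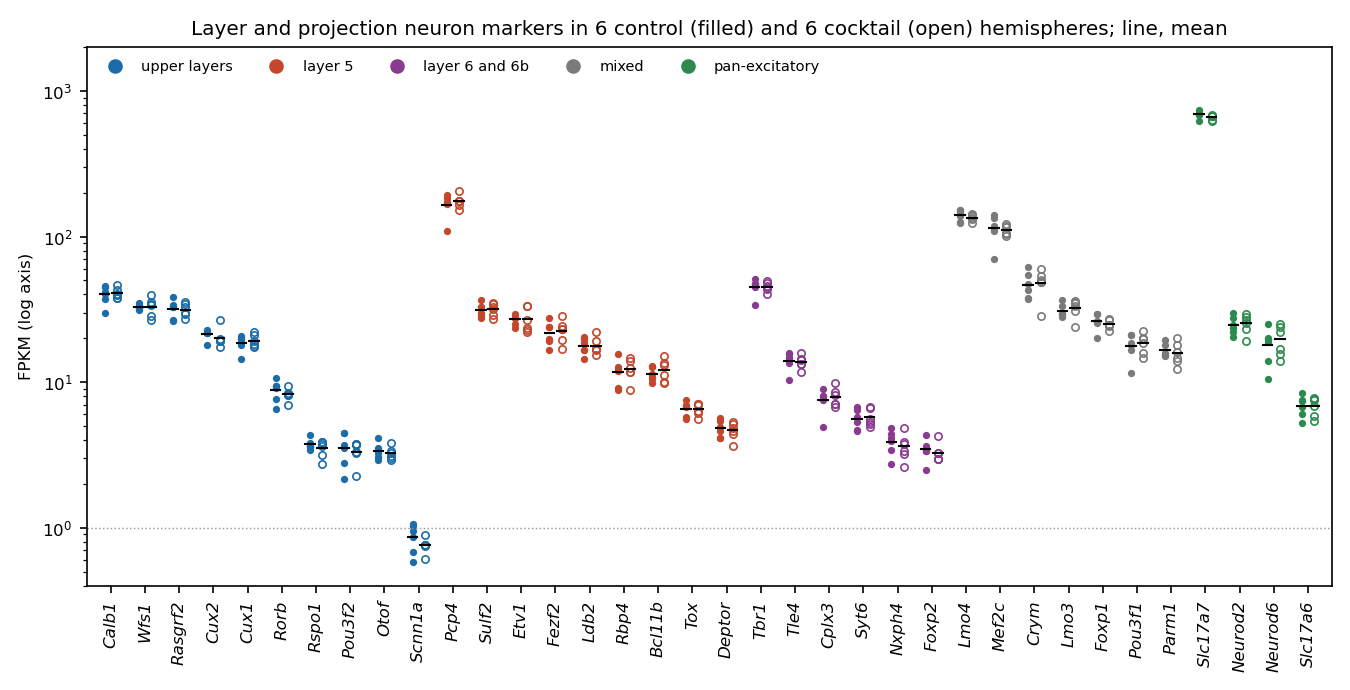
FPKM on a log axis for each of the 36 members in the 6 control (filled) and 6 cocktail (open) hemispheres, ordered by role and then by mean control level, with the group mean as a short line and a dotted line at 1 FPKM. Slc17a7 lies highest at a control mean of 689 FPKM and Scnn1a lowest at 0.860, and the control and cocktail points of each gene overlap.

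Slc17a7 encodes VGLUT1, the transporter that loads glutamate into synaptic vesicles of most cortical excitatory neurons, and lies at chr7:45163921-45176139 on the plus strand (mm10, as all gene positions here). Its level was 743, 680, 689, 700 and 625 FPKM in the control hemispheres of mice 1 to 5 and 694 in that of mouse 6, and 624, 677, 673, 636, 667 and 681 FPKM in the cocktail hemispheres of mice 1 to 6. The 2 groups overlapped, and the control hemisphere of mouse 1 was the highest of all 12. The mean was 689 ± 38.0 FPKM in control and 660 ± 23.7 in cocktail (SD, n = 6 each). The log2 fold change was -0.06 (SE 0.05, limma adjusted p = 0.850). The cocktail hemisphere was the higher one in 1 of 6 mice, and the exact permutation test that flips the sign of each mouse's difference gave p = 0.28125 (two-sided, n = 6, smallest p that it allows 0.03125). Fold changes here and below are differences of log2(FPKM + 1), which understate the change of genes near or under 1 FPKM.

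Slc17a6, which encodes the related transporter VGLUT2 and is typical of thalamic rather than cortical neurons, stood at 6.91 ± 1.12 FPKM in control. Within each control library Slc17a7 exceeded it by 83.0- to 141-fold, with a mean of 102 ± 22.0. The other general markers are transcription factors of the NeuroD family, which are switched on as excitatory neurons differentiate and stay on. Neurod2 had 24.6 ± 3.39 FPKM and Neurod6 18.002 ± 5.12 FPKM in control. Neurod6 had the widest spread of all members, with values of 10.5, 13.9, 20.0, 18.8, 25.1 and 19.7 FPKM in mice 1 to 6.

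Among the upper-layer genes, Calb1 was highest at 40.0 ± 5.86 FPKM in control. It encodes the calcium buffer calbindin, found in upper-layer pyramidal cells and also in a class of interneurons. Wfs1, an endoplasmic reticulum protein enriched in superficial layer 2/3 neurons, followed at 32.9 ± 1.37 FPKM, and Rasgrf2, a Ras and Rac exchange factor of layer 2/3, at 32.0 ± 4.63 FPKM. The homeobox factors Cux2 (21.3 ± 1.65 FPKM) and Cux1 (18.7 ± 2.33 FPKM) mark layers 2 to 4, and Rorb, a nuclear receptor that marks layer 4, reached 8.82 ± 1.46 FPKM. Rspo1, a Wnt pathway agonist, had 3.76 ± 0.32 FPKM and the POU factor Pou3f2 3.52 ± 0.93 FPKM.

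Of the 3 lowest members, Otof and Scnn1a are upper-layer genes. Otof encodes otoferlin, a calcium sensor of vesicle release, and lies at chr5:30367066-30461932 on the minus strand. Otof had 3.25, 3.08, 3.54, 3.41, 2.91 and 4.17 FPKM in the control hemispheres of mice 1 to 6, and 3.12, 3.24, 3.36, 3.82, 3.00 and 2.91 FPKM in the cocktail hemispheres. The groups overlapped, with both the highest control value and the lowest cocktail value in mouse 6. The mean was 3.39 ± 0.44 FPKM in control and 3.24 ± 0.33 in cocktail, a log2 fold change of -0.05 (SE 0.07, limma adjusted p = 0.921), and the exact sign-flip permutation test gave p = 0.71875 with 3 of 6 mice higher in cocktail.

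Scnn1a, a sodium channel subunit known as a marker of layer 4 neurons, lies at chr6:125321340-125344942 on the plus strand. Its level was 0.582, 0.678, 1.07, 1.02, 0.867 and 0.945 FPKM in control and 0.758, 0.892, 0.763, 0.608, 0.768 and 0.752 FPKM in cocktail, for mice 1 to 6. The cocktail values all lay within the range of the control values. With 39 to 81 reads behind each value and a mean under 1 FPKM, Scnn1a was the 1 member left out of the tests over all loci. The exact sign-flip permutation test gave p = 0.40625, with 2 of 6 mice higher in cocktail.

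Layer 5 was led by Pcp4, a small calmodulin-binding protein of deep-layer pyramidal cells, at chr16:96467606-96525793 on the plus strand. Its control values were 109, 193, 169, 173, 168 and 183 FPKM in mice 1 to 6, and its cocktail values 175, 176, 164, 176, 204 and 153 FPKM. The control hemisphere of mouse 1 was far below the other 11, which covered 153 to 204 FPKM, and the groups overlapped. The mean was 166 ± 29.3 FPKM in control and 175 ± 16.9 in cocktail, a log2 fold change of 0.09 (SE 0.10, limma adjusted p = 0.887), and without mouse 1 it was -0.02. The cocktail hemisphere was the higher one in 3 of 6 mice, and the exact sign-flip permutation test did not reach 0.05. Pcp4 shares exonic bases with Igsf5 on the same strand, so reads of the shared bases could belong to either gene.

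The other layer 5 genes lay between 4.81 and 31.4 FPKM in control. The sulfatase Sulf2 had 31.4 ± 3.27 FPKM, the ETS factor Etv1, a marker of layer 5 neurons that project within the forebrain, 26.9 ± 2.23 FPKM, and Fezf2, which specifies subcerebral projection neurons, 21.9 ± 3.99 FPKM. The LIM-domain cofactor Ldb2 had 17.8 ± 2.22 FPKM, the retinol carrier Rbp4, whose regulatory region drives a widely used layer 5 Cre line, 11.8 ± 2.52 FPKM, and Bcl11b (also called Ctip2), which acts downstream of Fezf2, 11.4 ± 1.22 FPKM. The HMG-box factor Tox reached 6.58 ± 0.75 FPKM and the mTOR inhibitor Deptor 4.81 ± 0.62 FPKM.

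In layer 6, Tbr1, the T-box factor that specifies corticothalamic neurons, had 45.3 ± 6.07 FPKM in control, more than 3 times the level of any other gene of that layer. The corepressor Tle4 followed at 14.0 ± 2.00 FPKM. Genes associated with the thin layer 6b were low: the complexin Cplx3 had 7.52 ± 1.37 FPKM and the neurexophilin Nxph4 3.91 ± 0.74 FPKM, the latter on 44 to 87 reads per library. The synaptotagmin Syt6 had 5.59 ± 0.87 FPKM.

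Foxp2, a forkhead repressor of corticothalamic neurons at chr6:14901349-15441977 on the plus strand, was the lowest deep-layer gene. It had 2.49, 3.63, 3.501, 3.38, 3.35 and 4.37 FPKM in control and 3.28, 3.27, 2.97, 2.98, 4.28 and 2.95 FPKM in cocktail, in mice 1 to 6. The groups overlapped, and the 2 highest values came from the control hemisphere of mouse 6 and the cocktail hemisphere of mouse 5. The means were 3.45 ± 0.60 and 3.29 ± 0.51 FPKM, a log2 fold change of -0.05 (SE 0.09, limma adjusted p = 0.935), and the exact sign-flip permutation test gave p = 0.65625 with 2 of 6 mice higher in cocktail.

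Genes that cross layers held 2 of the 4 highest levels. Lmo4, a LIM-only cofactor at chr3:144188530-144205255 on the minus strand, had 152, 125, 127, 147, 139 and 152 FPKM in control and 124, 132, 133, 141, 137 and 143 FPKM in cocktail. All 6 cocktail values lay below the control values of mice 1, 4 and 6, and the groups overlapped. The mean was 140 ± 12.2 FPKM in control and 135 ± 6.69 in cocktail, a log2 fold change of -0.05 (SE 0.05, limma adjusted p = 0.885), and the exact sign-flip permutation test gave p = 0.40625 with 2 of 6 mice higher in cocktail. Mef2c, an activity-responsive transcription factor of excitatory neurons, had 114 ± 24.6 FPKM, with its lowest control value of 70.1 FPKM in mouse 1. Crym, a thyroid hormone-binding protein, had 46.8 ± 9.63 FPKM, Lmo3 31.0 ± 3.30, the forkhead factor Foxp1 26.1 ± 3.45, the POU factor Pou3f1 17.7 ± 3.498 and the membrane protein Parm1 16.6 ± 1.82 FPKM.

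The list contains 6 pairs of related genes, whose FPKM ratio was formed within each control library. The difference of log2(FPKM + 1) within each pair was tested by the same exact sign-flip permutation over mice, with Benjamini-Hochberg adjustment over the 6 pairs. In 5 pairs 1 gene exceeded the other in 6 of 6 control libraries (exact p = 0.03125, the smallest possible, adjusted p = 0.0375 for each). These were Slc17a7 over Slc17a6 (above), Foxp1 over Foxp2 by 7.66 ± 0.97-fold, Pou3f1 over Pou3f2 by 5.41 ± 1.82-fold, Lmo4 over Lmo3 by 4.56 ± 0.55-fold and Neurod2 over Neurod6 by 1.44 ± 0.35-fold. The 2 Cux genes were nearly level, with Cux2 the higher in 5 of 6 libraries at a ratio of 1.16 ± 0.19 (exact p = 0.0625, adjusted p = 0.0625). In the cocktail hemispheres the mean ratios were 98.1, 7.79, 5.77, 4.24, 1.33 and 1.05 in the same order, each within 1 SD of its control mean.

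Across the cocktail comparison, none of the 35 members tested passed an adjusted p of 0.05 in limma, where 180 of all loci tested did (1.5%). Those calls comprised 147 loci that were higher (1.22%) and 33 that were lower (0.274%) in cocktail. Voom on the recovered reads also called no member. None of the members reached an unadjusted limma p under 0.05, against 8.05% of all loci tested. None changed in the same direction in all 6 mice, against 6.3%, and none had control and cocktail values without overlap, against 0.914%. At shares this small, 0 calls among 35 genes does not set the members apart from the other loci. Each 95% interval holds for a single gene on the scale of log2(FPKM + 1), not for the 35 genes jointly. The 95% intervals of all 35 members lay within 0.5 of 0 on the log2 scale, between the lower bound of -0.35 for Nxph4 and the upper bound of 0.38 for Neurod6.

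The estimates themselves ran from -0.09 for Nxph4 to 0.14 for Neurod6, with 16 above and 19 below 0. Their median was -0.01, against 0.01 for all loci tested. Without mouse 1, 10 estimates lay above and 25 below 0 with a median of -0.04, where 5104 of 12020 loci lay above and 6916 below 0 with a median of -0.01. The smallest adjusted p was 0.833 (Rspo1, log2 fold change -0.08, SE 0.06). On simulated data for these 12032 loci, the fit found 93 of 100 genes changed by 0.5 and 100 of 100 changed by 1 on the log2 scale. It also called 9 unchanged loci. The simulation changed only genes above a minimum of reads. It gave every locus the same spread between mice and the same extra variation between libraries, so these shares do not carry over to each member.

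**Figure D2:**
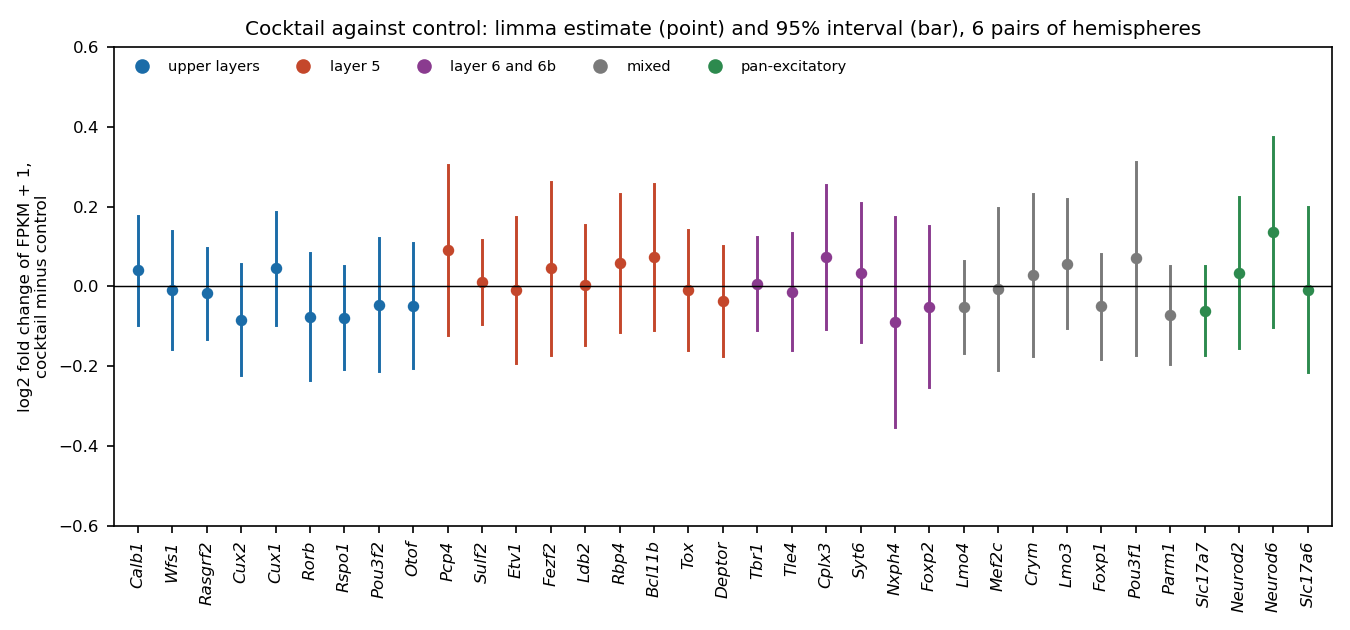
Log2 fold change of FPKM + 1, cocktail minus control, for the 35 members tested, with the limma estimate as a point and its 95% interval as a bar, coloured by role (6 mice, hemispheres paired). All bars cross 0 and stay between -0.35 and 0.38.

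By role, the upper-layer genes had 2 estimates above and 7 below 0, with a median of -0.05. Cux2 (-0.08), Rspo1 (-0.08), Rorb (-0.08), Otof (-0.05), Pou3f2 (-0.05), Rasgrf2 (-0.02) and Wfs1 (-0.01) were the 7 below, and Cux1 (0.04) and Calb1 (0.04) the 2 above. Without mouse 1 all 9 lay below 0, with Cux1 at -0.01, Calb1 at -0.02 and a median of -0.05. Leaving out mouse 2, Cux2 had a log2 fold change of -0.15 (SE 0.05, limma adjusted p = 0.371), and leaving out mouse 1, Rorb had -0.15 (SE 0.06, limma adjusted p = 0.437). No upper-layer gene passed the adjusted threshold in either case.

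The layer 5 genes had 6 estimates above and 3 below 0, with a median of 0.01. Pcp4 (0.09), Bcl11b (0.07), Rbp4 (0.06), Fezf2 (0.05), Sulf2 (0.01) and Ldb2 (0.003) were above, and Etv1 (-0.01), Tox (-0.01) and Deptor (-0.04) below. Without mouse 1, 4 lay above and 5 below 0 with a median of -0.02, and Pcp4 (-0.02) and Ldb2 (-0.04) were the ones whose sign turned. In layer 6, Cplx3 (0.07), Syt6 (0.03) and Tbr1 (0.01) were above 0 and Tle4 (-0.01), Foxp2 (-0.05) and Nxph4 (-0.09) below, with a median of -0.003. Without mouse 1, Syt6 (0.03) alone lay above 0, Cplx3 was at -0.0025, Tbr1 at -0.04 and Nxph4 at -0.18, and the median was -0.06. For the factors that specify deep-layer identity, the 95% intervals were -0.11 to 0.12 for Tbr1, -0.17 to 0.26 for Fezf2 and -0.11 to 0.26 for Bcl11b.

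Of the genes that cross layers, Pou3f1 (0.07), Lmo3 (0.06) and Crym (0.03) had estimates above 0, and Mef2c (-0.01), Foxp1 (-0.05), Lmo4 (-0.05) and Parm1 (-0.07) below, with a median of -0.01. Foxp1 was lower in the cocktail hemisphere of 5 mice and higher in mouse 1. Leaving out that mouse gave a log2 fold change of -0.12 (SE 0.04, limma adjusted p = 0.316) for Foxp1 and of -0.12 (SE 0.05, limma adjusted p = 0.555) for Mef2c, and no sign among these 7 genes turned.

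Among the general excitatory genes, which also kept their signs without mouse 1, Neurod6 (0.14) and Neurod2 (0.03) had estimates above 0 and Slc17a6 (-0.01) and Slc17a7 (-0.06) below. Neurod6 had 15.7, 13.9, 25.2, 22.2, 16.9 and 24.0 FPKM in the cocktail hemispheres of mice 1 to 6, higher than control in 5 of 6 mice, with 13.9 FPKM to 3 digits in both hemispheres of mouse 2. In mouse 5 it was 25.1 FPKM in control and 16.9 in cocktail. Without mouse 1 the log2 fold change of Neurod6 was 0.06. Without mouse 5 the log2 fold change of Neurod6 was 0.27 (SE 0.07, limma adjusted p = 0.153), the lowest adjusted p of any member under any alternative.

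To compare the layer markers as groups, the mean log2(FPKM + 1) of the 15 deep-layer genes was subtracted from that of the 9 upper-layer genes tested, in each library. In control this balance was -0.09, -0.10, -0.23, -0.04, -0.09 and -0.07 in mice 1 to 6 (mean -0.10, SD 0.07). In cocktail it was -0.28, -0.02, -0.13, 0.11, -0.33 and -0.21 (mean -0.14, SD 0.16). The cocktail values thus spread on both sides of the control values, and the groups overlapped.

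Within mice, the balance was lower in cocktail for mice 1, 5 and 6 (by -0.19, -0.24 and -0.14) and higher for mice 2, 3 and 4 (by 0.08, 0.09 and 0.14). The mean difference was -0.04 with an SD of 0.17 (n = 6), so that it was smaller than the spread between mice. In mouse 1 the deep-layer genes were 0.27 higher in cocktail, beside the control library that stood apart, while the upper-layer genes were 0.07 higher. In mouse 5 the cocktail minus control difference was -0.12 for the upper-layer genes and 0.12 for the deep-layer genes. No test was made of these scores, since they are averages over chosen genes. Among those genes are Wfs1, Bcl11b, Foxp2 and Rbp4, whose slopes on a list of hippocampus markers are given below. The part of that variation in the balance was not tested.

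Other genes of the same cell types were measured as well. Of 25 further layer and excitatory genes tested, 0 were called in limma and 2 had an unadjusted p under 0.05. Among the 8 further upper-layer genes 4 estimates lay above and 4 below 0 (median -0.01), and the highest genes were Lhx2 (33.3 ± 1.17 FPKM in control) and Plxnd1 (28.7 ± 2.82). The 9 further deep-layer genes had a median of 0.02 with 6 above and 3 below 0, led by Nfib (18.7 ± 2.22 FPKM) and Crim1 (11.2 ± 1.73). The 8 further excitatory genes had a median of -0.04 with 3 above and 5 below 0, led by Nrgn, a calmodulin-binding postsynaptic protein (1260 ± 109 FPKM), and Camk2a, a kinase of the excitatory synapse (622 ± 42.2 FPKM).

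Markers of other cells and of neighbouring regions that the dissection could hold gave 0 calls in limma among 62 genes tested, with an unadjusted p under 0.05 for 2 thalamus genes and 1 astrocyte gene. All 8 oligodendrocyte genes (median log2 fold change 0.11, summed level 2274 to 2893 FPKM in control and 2585 to 2958 in cocktail) and all 8 interneuron genes (median 0.08, 488 to 549 and 521 to 566 FPKM) had estimates above 0. The medians were 0.06 for astrocytes (8 genes), 0.03 for microglia (9), 0.03 for endothelium (7), -0.01 for striatum (8 tested), 0.06 for thalamus (6), 0.13 for hippocampus (4), -0.03 for claustrum (3) and 0.07 for the 1 gene tested of choroid plexus. The highest pairs of genes were Sst and Gad1 for interneurons, Slc1a2 and Aldoc for astrocytes, Cldn5 and Ly6c1 for endothelium, Ramp3 and Rgs16 for thalamus, Fibcd1 and Spink8 for hippocampus, Ntng2 and Lxn for claustrum, and Kl and Folr1 for choroid plexus. The choroid plexus marker Ttr was listed at 0 in 11 of 12 libraries.

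The hippocampus list was the most uneven of these, with a summed level of 6.11 to 31.5 FPKM in control and 7.84 to 38.6 FPKM in cocktail. Fibcd1, a marker of hippocampal field CA1, had 17.2, 8.81, 12.4, 12.1, 18.3 and 2.05 FPKM in the control hemispheres of mice 1 to 6 and 13.6, 3.02, 24.8, 18.2, 6.89 and 13.6 FPKM in the cocktail hemispheres. Low values (2.05 and 3.02) and high values (18.3 and 24.8) occurred in both groups, and the groups overlapped. After this was seen, the slope of each locus on the mean log2(FPKM + 1) of the hippocampus list was fitted in limma beside mouse and treatment. This mean was taken over all 8 genes of the list, of which 4 had entered the tests.

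None of the 35 members passed an adjusted p of 0.05 for this slope, against 0.0748% of the 12028 loci outside the list. An unadjusted p under 0.05 was reached by 8 members, against 2.88% of these loci. The slope was above 0 for Pou3f1 (0.97, SE 0.17, limma adjusted p = 0.107), Neurod6 (0.70), Crym (0.69), Bcl11b (0.65), Lmo3 (0.49) and Wfs1 (0.46), and below 0 for Foxp2 (-0.59) and Rbp4 (-0.48). As background, Pou3f1, Bcl11b and Wfs1 are also expressed by neurons of the hippocampus. Pou3f1 had 16.7, 17.9, 20.9, 18.5, 20.9 and 11.5 FPKM in control and 20.0, 15.9, 22.4, 19.7, 14.7 and 18.5 FPKM in cocktail. Its cocktail hemisphere was the higher one in mice 1, 3, 4 and 6, while Fibcd1 was higher in cocktail in mice 3, 4 and 6. Since Pou3f1 was picked by its slope and Fibcd1 is on the list, these directions are no separate evidence of a link. With the hippocampus level in the model, 158 loci and again 0 members were called between cocktail and control. The part of adjoining hippocampal tissue in these values was not tested.

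**Figure D3:**
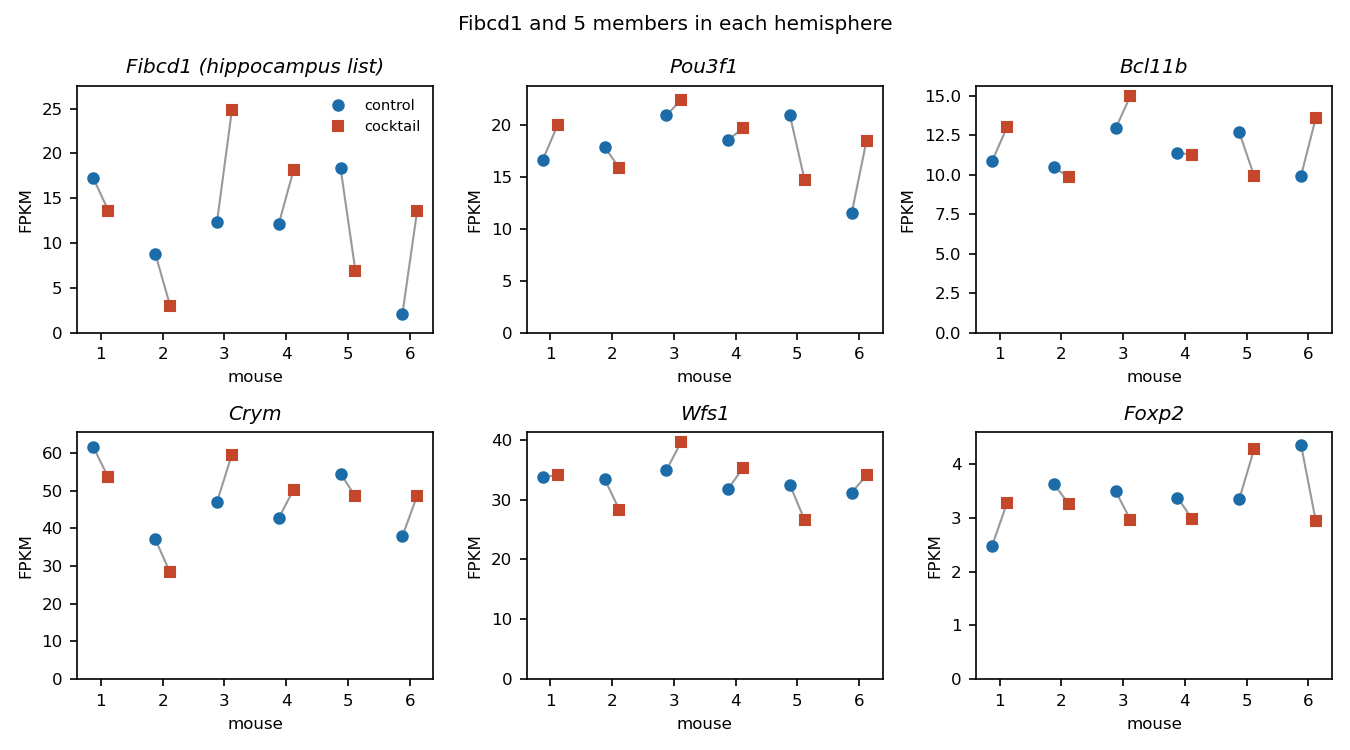
FPKM of the hippocampal marker Fibcd1 and of Pou3f1, Bcl11b, Crym, Wfs1 and Foxp2 in the control (circles) and cocktail (squares) hemisphere of each mouse, joined by a line, with each axis starting at 0. The members shown were chosen from those whose slope on the hippocampus list had an unadjusted limma p under 0.05. Neurod6, Lmo3 and Rbp4 also reached it and are not drawn. Fibcd1 is on that list, so how the members move with it follows in part from this choice. In mice 3 and 6 Fibcd1, Pou3f1, Bcl11b, Crym and Wfs1 are higher in cocktail and Foxp2 is lower. In mouse 5 each of the 6 is on the opposite side. Mouse 4 is like mice 3 and 6 except that Bcl11b is lower. In mouse 2 all 6 are lower in cocktail. In mouse 1 Fibcd1 and Crym are lower, and Pou3f1, Bcl11b, Wfs1 and Foxp2 are higher.

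Differences between mice were tested in the same limma fit, also after the values had been seen. None of the members tested differed between mice at an adjusted p of 0.05, against 1.97% of all loci tested, and the lowest adjusted p was 0.0726 for Parm1. Parm1 had 19.6 and 19.9 FPKM in the hemispheres of mouse 1 and 18.07 and 18.05 in those of mouse 6, while the 4 other mice lay between 12.4 and 16.1 FPKM.

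Promoter sequences of the members were examined for the cyclic AMP response element (CRE) and the AP-1 site. These are the sites bound by the activity-driven factors CREB and Fos/Jun. The RefSeq promoter table (build GRCm38.p6, 250 bases before to 50 bases after each start) held 26 of the 36 members; Calb1, Crym, Deptor, Foxp2, Ldb2, Nxph4, Otof, Pou3f1, Scnn1a and Tox were not among them. Both strands were searched for the letters TGACGTCA (CRE), TGACG (CRE half-site, which the full CRE contains) and TGAGTCA or TGACTCA (AP-1, the same site on opposite strands). The full CRE stood in the promoters of 0 of the 26 members, of 3.69% of the 9175 tested genes with a promoter and of 11 of the 104 such genes that rose in cocktail (10.6%). The half-site stood in 5 of the 26 (19.2%: Foxp1, Neurod2, Rasgrf2, Rbp4 and Slc17a6), against 36.3% of all and 57.7% of the genes that rose. The AP-1 site stood in 2 of the 26 (7.69%: Rbp4 and Syt6), against 4.32% of all and 5.77% of the genes that rose. A member with several listed starts was counted if the promoter of any of them held the letters. Of the half-site matches, only that of Neurod2 belongs to a start at the edge of the measured locus. The matched starts of Foxp1, Rbp4 and Slc17a6 lie inside their loci, and that of Rasgrf2 lies outside its locus. These are matches of letters, not sites shown to be bound, and where no match stands the letters are missing from this window only. Any bearing of the matches on the response to the cocktail was not tested.

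Shown here are a promoter of an excitatory neuron gene with a half-site close to the start (Neurod2, chr11:98329596-98329895, minus strand), the layer 5 promoter that holds both kinds of match (Rbp4, chr19:38124762-38125061, minus strand) and the layer 6 promoter with an AP-1 match (Syt6, chr3:103575876-103576175, plus strand). Each is the RefSeq GRCm38.p6 sequence from 5′ to 3′ in the direction of the gene, with the matched letters in capitals. The matches begin at position -31 in Neurod2, at -172 (half-site) and -142 (AP-1) in Rbp4 and at 10 in Syt6, counted from the start.
Neurod2: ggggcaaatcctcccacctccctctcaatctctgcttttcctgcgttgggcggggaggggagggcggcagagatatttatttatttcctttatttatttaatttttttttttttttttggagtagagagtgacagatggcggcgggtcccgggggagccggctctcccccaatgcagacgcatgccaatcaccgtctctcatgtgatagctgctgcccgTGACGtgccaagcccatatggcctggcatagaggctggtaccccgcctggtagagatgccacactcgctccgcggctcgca
Rbp4: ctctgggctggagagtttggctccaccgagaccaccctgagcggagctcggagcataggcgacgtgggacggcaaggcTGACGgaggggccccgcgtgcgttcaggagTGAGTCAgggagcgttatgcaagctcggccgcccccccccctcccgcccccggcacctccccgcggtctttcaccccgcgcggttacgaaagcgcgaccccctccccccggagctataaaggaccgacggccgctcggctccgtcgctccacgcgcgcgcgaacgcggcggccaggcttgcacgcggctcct
Syt6: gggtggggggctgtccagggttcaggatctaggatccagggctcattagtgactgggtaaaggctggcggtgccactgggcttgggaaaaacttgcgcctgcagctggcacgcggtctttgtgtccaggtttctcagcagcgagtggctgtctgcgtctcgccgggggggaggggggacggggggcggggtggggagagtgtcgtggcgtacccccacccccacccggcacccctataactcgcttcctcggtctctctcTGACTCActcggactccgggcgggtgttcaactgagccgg
The Neurod2 start is the end of the locus in the expression tables, while the Rbp4 and Syt6 starts shown lie inside their loci and are alternative starts of those genes. The Rbp4 promoter at chr19:38125272-38125571 and the Syt6 promoter at chr3:103575032-103575331, whose starts are the edges of the loci, held no match. Neurod2 had 24.6 ± 3.39 FPKM in control and 25.3 ± 3.66 in cocktail, Rbp4 11.8 ± 2.52 and 12.2 ± 2.05, and Syt6 5.59 ± 0.87 and 5.74 ± 0.78 FPKM, none of them called.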

How the data were processed

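RNA from auditory cortex of 12 slice hemispheres (6 mice, 1 control and 1 cocktail hemisphere each) was sequenced as polyadenylated RNA after cDNA synthesis with a directional kit. The authors removed ribosomal reads with BWA 0.6.1, aligned to mm10 with TopHat 1.4.1 keeping 1 alignment for a read, and ran Cufflinks 1.3.0 with its bias correction to obtain FPKM scaled to the fragments of RefSeq protein-coding genes. Values here are the deposited FPKM without further scaling. The strand setting of the FPKM step is not given in the sources used here, and 6 members share exonic bases with a gene on the opposite strand (Sulf2, Cux1, Pou3f1, Tox, Syt6 and Deptor; GENCODE M21), whose reads might then be mixed. A table of the authors' own comparison (HTSeq 0.6.1p1 counts, DESeq2 1.6.3) with group means was not used. The methods give a further rest of 1 h in plain aCSF after the incubation, which the sample labels do not mention.

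Reads behind each value were recovered from the FPKM intervals, taken as 2 Poisson standard deviations. Of 36412 values under 20 reads, 82.8% were whole to within 0.05. Read numbers cover counting error only.

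Loci with a mean of at least 1 FPKM (12032 of 20989) entered limma 3.58.1 (R 4.3.3) on the scale log2(FPKM + 1), with mouse as a block, a variance trend and Benjamini-Hochberg adjustment over all loci tested at 0.05. The fit was tested on simulated data. Single genes were also tested by an exact sign-flip permutation (two-sided, 6 mice, 64 flips). The mouse given in the sample labels pairs the hemispheres, and deviations from group means correlated at 0.216 to 0.406 within mice (6 pairs) against -0.42 to 0.445 between mice (30 pairs). Values in every library were given for the 3 highest and 3 lowest members in control, for members called and for those with an unadjusted p under 0.05, of which there were none, and the other members were given by level. Of the other lists the 2 highest genes in control were named, and for oligodendrocytes, microglia and striatum they are not reported here. Where further values are given (Neurod6, Pou3f1, Parm1 and Fibcd1), the gene was chosen after its values were seen, as were the promoters and motifs. The members and lists were chosen with earlier results of these data known. Drd1a, listed for striatum, was the 1 listed gene of 102 without a locus under that symbol. Plots were made in matplotlib 3.10.9 (Python 3.11.15).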

Additional observations from a re-analysis of the deposited data

Results flagged for a closer look

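Among 111 groups of 6 values (each member in control, in cocktail and as the within-mouse difference, and the upper minus deep balance), 11 held 1 value far from the other 5 by Dixon's criterion, where chance gives about 5.55. Cux2 was picked out in all 3 ways. In control its lowest value was 18.11 FPKM in mouse 5, with the others between 21.62 and 22.87, and in cocktail its highest was 26.65 FPKM in mouse 2, with the others between 17.32 and 19.64. The within-mouse log2 difference of Cux2 was 0.262 in mouse 2 and between -0.224 and -0.061 in the other 5.

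The control library of mouse 1, which stood apart over all loci, gave the lowest control values of Pcp4 (109.2 FPKM, others 167.9 to 193.0) and Cplx3 (4.905 FPKM, others 7.503 to 8.937), both deep-layer genes. The within-mouse log2 difference of Foxp1 in the same mouse was 0.278, with the others between -0.184 and -0.064. The cocktail library of mouse 1 gave the lowest cocktail value of Pou3f2, 2.263 FPKM, with the others between 3.266 and 3.746.

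In the cocktail hemisphere of mouse 2, Crym was lowest at 28.3 FPKM, with the others between 48.49 and 59.59, and that hemisphere also had the lowest Fibcd1 value of its group. Foxp2 was highest in the cocktail hemisphere of mouse 5 at 4.28 FPKM, with the others between 2.945 and 3.275. The within-mouse log2 difference of Otof was -0.402 in mouse 6, with the others between -0.058 and 0.127. The control upper minus deep balance was lowest in mouse 3 at -0.228, with the others between -0.099 and -0.037.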

How the results depend on the processing

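The number of loci called between cocktail and control was 180, and it moved by more than 1.5 times under 3 alternatives: 88 with no replicate block (the pairing by mouse left out), 118 with voom on the recovered reads, and 104 without mouse 4. Leaving out each mouse in turn gave 104 to 181. Other pseudocounts, filters, scalings, variance settings, sample weights and the hippocampus level as a covariate, the last chosen after the data were seen, gave 123 to 239. In all 16 alternative fits, the one without the block included, 0 members were called. Of 554 member values in these fits 74 changed sign, which is not read as a change of direction, since no member had a called one, and 7 values of 6 members had an unadjusted p under 0.05, with a smallest limma adjusted p of 0.153. The mean upper minus deep difference stayed below 0, at -0.08 to -0.003 with a mouse left out, within its SD over mice, and the median control level of the members at 17.4 to 18.97 FPKM. Member log2 fold changes ranged from -0.19 to 0.27 over these fits. Scaling by the median of ratios moved the median of all loci from 0.0076 to 0.0001.

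Depth limits Scnn1a (39 to 81 reads) and Nxph4 (44 to 87 reads) most. The slices hold all layers, so a change confined to 1 layer or to few cells is diluted in these values, and levels after a single time cannot show earlier or later changes.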
